A study of Homo sapiens with 6 samples.

Results

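The Hedgehog pathway genes described here are HHIP, PTCH1, SMO, GLI1, GLI2, GLI3, SUFU, BOC and CDON, 9 of the 63140 gene IDs of an RNA-seq count table, found by matching Ensembl gene IDs to these symbols. RNA was measured in Y79, an established human retinoblastoma cell line that grows in suspension, so that the samples hold 1 cell line and no surrounding retina. In the control group the cells were kept in complete medium, and in the rhArg group they received arginase, made as a recombinant human protein (rhArg), which degrades arginine in the medium. Each group had 3 libraries. The treatment time of 72 h and the dose of 2 U/mL come from the study's text, which gives this dose for its experiments in general. The study says in general that its n, of at least 3, counts experiments, microscopy excepted. Neither the labels nor the methods for RNA-seq say whether the 3 libraries of a group were separate cultures. The p-values therefore rest on the spread among libraries that may be technical replicates.

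Hedgehog ligands (SHH, IHH and DHH) are secreted, lipid-modified proteins. They bind the receptor PTCH1, which otherwise holds the membrane protein SMO inactive, and the co-receptors CDON, BOC and GAS1 help PTCH1 to capture the ligand, whereas HHIP binds the ligand at the cell surface and keeps it from PTCH1. Active SMO accumulates in the primary cilium and frees the GLI transcription factors from SUFU, after which GLI1 and GLI2 act mainly as activators and GLI3 mainly as a repressor. PTCH1, HHIP and GLI1 are themselves classical target genes, so that the pathway feeds back on its own receptor, its decoy and its activator. In the developing retina SHH from ganglion cells promotes the proliferation of progenitors.

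HHIP rose from a very low level in rhArg-treated cells, while SMO, CDON and GLI1 fell. PTCH1, SUFU and GLI2 did not pass the test, and GLI3 and BOC had too few counts to be tested. Of the 3 feedback targets among the members, HHIP was higher, GLI1 was lower and PTCH1 did not pass. As the RNA is from whole cultures, fewer cells that express a gene and less RNA per cell cannot be told apart. The quasi-likelihood test of edgeR was run on all 15221 genes that passed a filter on low counts, and its p-values were adjusted for that number (Benjamini-Hochberg). A gene was called higher or lower at an adjusted p under 0.05. The control counts of HHIP alone did not meet the filter, so that rhArg libraries were needed for it to be tested. Of the 7 members tested, 1 was higher and 3 were lower (57.1% called), beside 61.7% of all genes tested (30.7% higher and 30.9% lower), so the share of members called was near the background. With the study's additional cutoff of an absolute log2 fold change over 1, 3 members were called (HHIP, SMO and CDON), beside 23.4% of all genes.

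**Figure D1:**
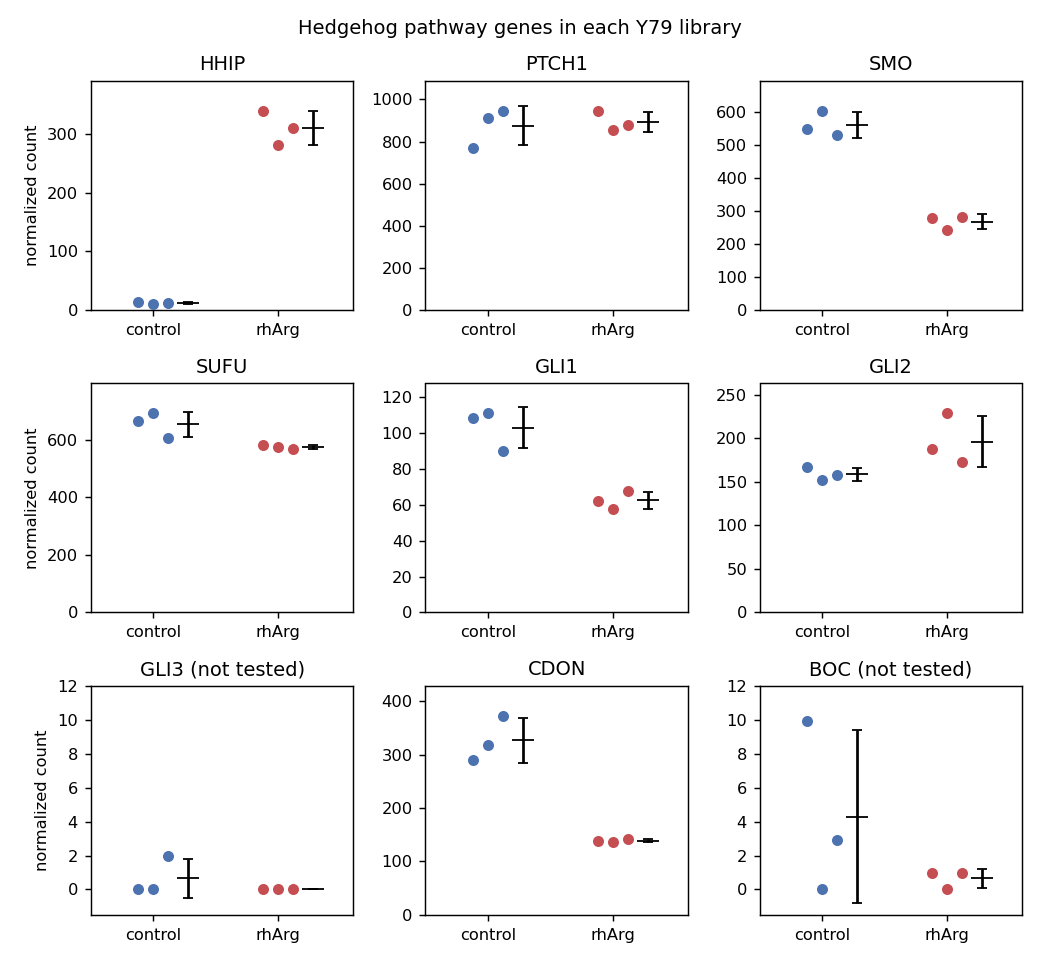
Normalized counts (vertical axes, each from its own range) of the 9 Hedgehog pathway genes in the 3 control libraries (blue) and the 3 rhArg libraries (red), with the mean and SD of each group in black. HHIP lies at 9.69 to 12.9 in controls and 281 to 340 after rhArg, SMO, CDON and GLI1 are lower in every rhArg library, and GLI3 and BOC stay at 9.93 or below.

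The libraries were of similar depth, with totals of 12580622 to 13747351 counts, and replicate libraries differed beyond counting error, with a chi-square of 3.91 to 18.2 per degree of freedom. Photoreceptor and retinoblastoma markers were present as the cell line's label implies, with 13 of 14 markers detected and a summed normalized count of 50650 to 55240 in controls and 47370 to 48340 after rhArg. The sum was carried by OTX2, AIPL1, NEUROD1 and CRX, and of the 12 markers tested 8 were lower and 2 higher after rhArg, with a median log2 fold change of -0.89. Müller glia markers summed to 7864 to 8191 in controls and 6823 to 7270 after rhArg, mostly GLUL and VIM, with 6 of 8 detected and the defining genes RLBP1 and AQP4 at 0. Fibroblast and endothelial markers summed to 60.6 to 76.5 and 56.9 to 63.6, with 6 of 10 detected and COL3A1, LUM, CDH5 and KDR at 0. Retinal pigment epithelium markers summed to 39.9 to 62.6 in controls and 150 to 191 after rhArg, with 6 of 8 detected, TYR and TYRP1 at 0, and BEST1 carrying most of the sum after rhArg. This sum moved with the treatment, and the part of any other cell type in the Hedgehog values was not tested. Of the immune markers, 4 of 6 were detected, with AIF1 and CD3E at 0.

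HHIP, the decoy receptor that withholds ligand, lies at chr4:144646156-144745271 on the plus strand of GRCh38 (ENSG00000164161). The raw counts were 13, 9 and 13 in the control libraries and 341, 282 and 323 in the rhArg libraries. After normalization for library size these were 12.9, 9.69 and 12.7 in controls and 340, 281 and 311 after rhArg. The groups did not overlap, and the control libraries were all close to the limit of detection. The log2 fold change was 4.70 (SE 0.20, adjusted p = 2.8e-11), a 26.04-fold higher level with a 95% confidence interval of 19.4 to 34.9. The control counts of HHIP alone did not meet the filter on low counts, so that rhArg libraries were needed for it to be tested. Its place among the tested genes, where it is called and ranked, therefore rests partly on the rhArg counts. Without the filter it was still called higher by edgeR, at a log2 fold change of 4.69. Among all 15221 genes tested its log2 fold change ranked 64th from the top, and it ranked 24th among the 11533 genes whose mean normalized count reached 50.

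The counting used no strand information, and 8.32% of the exon bases of HHIP lie within another gene, the antisense gene HHIP-AS1 among them. HHIP-AS1, named after its values were seen, had raw counts of 19, 19 and 30 in controls and 57, 56 and 76 after rhArg. Its groups did not overlap, with a log2 fold change of 1.43 (SE 0.25, adjusted p = 0.000115). Reads from the bases that both genes cover cannot be told apart, so the split between HHIP and HHIP-AS1 is uncertain there. In controls HHIP-AS1 had more counts than HHIP in each library, and after rhArg it had fewer.

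The 250 bases before the start sites of HHIP and of PTCH1 are shown because both genes act in ligand reception and feedback, and because windows of these members alone held a searched motif. Sequences were taken from RefSeq (GRCh38.p14) and are written 5′ to 3′ on the strand of the gene. Capitals mark the cAMP response element TGACGTCA in HHIP (chr4:144645906-144646155, plus strand) and the GLI consensus GACCACCCA, read here on the opposite strand as TGGGTGGTC, in PTCH1 (chr9:95509267-95509516, minus strand).
HHIP: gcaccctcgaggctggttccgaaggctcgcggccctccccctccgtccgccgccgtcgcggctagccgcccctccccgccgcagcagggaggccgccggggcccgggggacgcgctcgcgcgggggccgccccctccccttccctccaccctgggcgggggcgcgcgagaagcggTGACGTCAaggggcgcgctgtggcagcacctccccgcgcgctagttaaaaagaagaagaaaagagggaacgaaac
PTCH1: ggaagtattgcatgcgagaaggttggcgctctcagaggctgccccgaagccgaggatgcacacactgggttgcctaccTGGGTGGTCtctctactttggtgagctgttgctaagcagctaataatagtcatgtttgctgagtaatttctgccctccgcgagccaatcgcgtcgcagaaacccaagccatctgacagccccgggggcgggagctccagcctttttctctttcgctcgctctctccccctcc

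In HHIP the match starts 75 bases before the start site, and in PTCH1 172 bases before. Windows of 300 bases, 250 before and 50 after a start site, were matched for 7 of the 9 members (not GLI1 and GLI3), 15 windows in all. Each window was searched on both strands for these motifs and for the C/EBP-ATF response element TGATGNAA (TTNCATCA on the other strand), the composite site of amino acid stress. Of 35116 windows in the table, 0.236% held the GLI motif, 1.85% the cAMP response element and 3.62% the C/EBP-ATF element. The other windows of the members, including the other 4 of PTCH1, held none of these letters, which describes the windows and not the binding of a factor.

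PTCH1, the ligand receptor and the best known feedback target, lies at chr9:95442980-95517057 on the minus strand (ENSG00000185920). Its normalized counts were 772, 911 and 946 in controls and 944, 854 and 880 after rhArg. The ranges overlapped almost entirely. The log2 fold change was 0.03 (SE 0.10, adjusted p = 0.83), with a 95% confidence interval of the fold from 0.877 to 1.18. This interval is for the estimated fold between the groups, and single libraries can differ by more.

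CDON, an immunoglobulin-family co-receptor that presents ligand to PTCH1, lies at chr11:125955796-126063335 on the minus strand (ENSG00000064309). It had normalized counts of 290, 319 and 373 in controls and 138, 137 and 142 after rhArg. All rhArg libraries were below the lowest control, and the rhArg libraries lay close together. The log2 fold change was -1.24 (SE 0.14, adjusted p = 1.1e-06), a ratio of rhArg to control of 0.424 with a 95% confidence interval of 0.347 to 0.518. The gene VSIG10L2, which covers 14.2% of the exon bases of CDON, had 1 count in all libraries together.

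BOC, the paralog of CDON at chr3:113211003-113287459 (ENSG00000144857), had raw counts of 10, 0 and 3 in controls and 1, 0 and 1 after rhArg. Control replicate 1 held 10 of the 13 control counts. The ratio of control to rhArg was 6.67 with a 95% counting interval of 1.51 to 60.9, which covers counting error only and not the spread between libraries. BOC did not pass the filter on low counts, and without the filter its adjusted p by edgeR was 0.046. GAS1, the third co-receptor, had 12 counts in controls and 11 after rhArg, and was not tested. Of these 3 co-receptors, CDON was the one tested.

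SMO, the seven-pass membrane protein that carries the signal inward, lies at chr7:129188633-129213545 on the plus strand (ENSG00000128602). Its normalized counts were 547, 603 and 530 in controls and 278, 243 and 283 after rhArg. The lowest control library lay well above the highest rhArg library. The log2 fold change was -1.06 (SE 0.11, adjusted p = 6.3e-07), a 2.09-fold lower level, and the 95% confidence interval of the ratio of rhArg to control was 0.407 to 0.564.

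SUFU, the cytoplasmic inhibitor that retains GLI proteins, lies at chr10:102503972-102633535 on the plus strand (ENSG00000107882). It had normalized counts of 664, 692 and 605 in controls and 581, 576 and 569 after rhArg. The ranges did not overlap, and the rhArg libraries lay just below the lowest control. The log2 fold change of -0.18 (SE 0.10) did not pass the test (adjusted p = 0.11), with a 95% confidence interval of the ratio from 0.763 to 1.02. KIF7, a kinesin of the ciliary tip that organises SUFU and GLI there, had normalized counts of 66.5, 90.5 and 91.9 in controls and 294, 311 and 300 after rhArg. It rose 3.64-fold (log2 fold change 1.86, SE 0.15, adjusted p = 4.3e-08), with no overlap between groups. TICRR covers 10.8% of the exon bases of KIF7, so part of the reads there cannot be assigned between them.

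**Figure D2:**
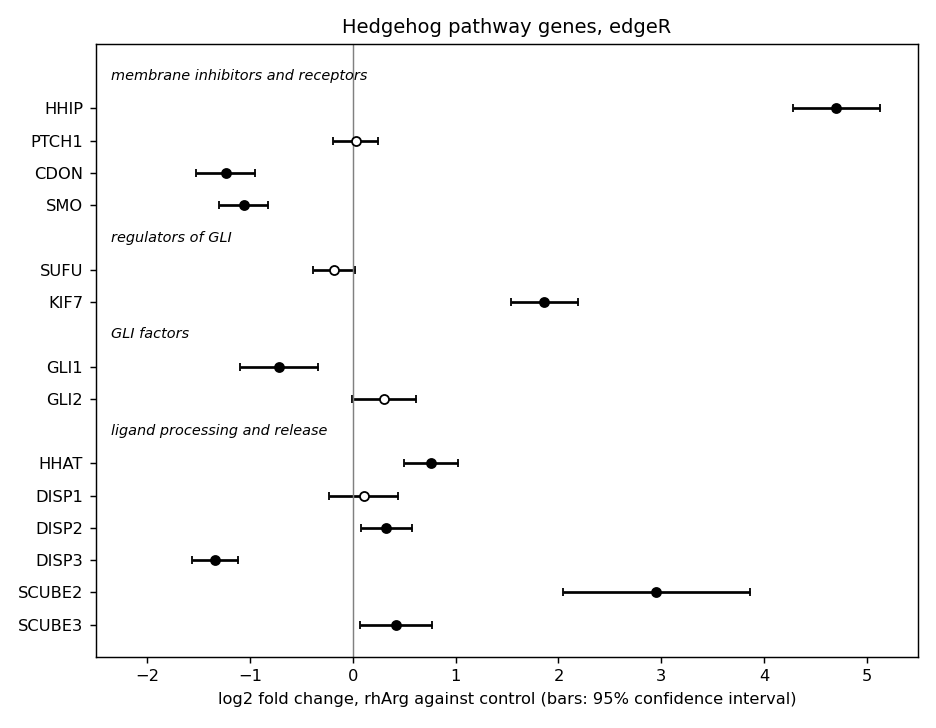
Log2 fold change of rhArg against control (horizontal axis) for the tested Hedgehog members and for KIF7 and the ligand release genes, with 95% confidence intervals from edgeR. Filled points passed an adjusted p under 0.05 and open points did not. HHIP stands at 4.70, SMO and CDON at -1.06 and -1.24, and the intervals of PTCH1, SUFU and GLI2 include 0.

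GLI1, the activator that is also a target of the pathway, lies at chr12:57459785-57472268 on the plus strand (ENSG00000111087). Its normalized counts were 108, 111 and 89.96 in controls and 61.8, 57.9 and 67.5 after rhArg. The groups did not overlap, and GLI1 fell to a ratio of 0.607 with a 95% confidence interval of 0.467 to 0.789. The log2 fold change was -0.72 (SE 0.18, adjusted p = 0.0024).

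GLI2, the main activator in ligand-dependent signalling, lies at chr2:120735623-120992653 on the plus strand (ENSG00000074047). It had normalized counts of 167, 152 and 157 in controls and 187, 229 and 173 after rhArg. The highest value was that of rhArg replicate 2, and although the groups did not overlap the log2 fold change of 0.30 (SE 0.15) did not pass the test (adjusted p = 0.085). The 95% confidence interval of the fold ran from 0.994 to 1.54.

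GLI3, the main repressor of the family, lies at chr7:41960949-42264100 on the minus strand (ENSG00000106571). It had 2 counts in control replicate 3 and 0 in the other 5 libraries, and no fold change is given at this depth.

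GLI1 also had a lower share of the GLI transcripts after rhArg, in a comparison that cannot pass a threshold of 0.05 with 3 libraries a group. GLI1 made up 52.3%, 55.3% and 49.0% of the summed GLI counts per kilobase in the control libraries and 35.8%, 30.0% and 39.8% in the rhArg libraries. Every rhArg library had a lower GLI1 share than every control library. The mean GLI1 share was 52.2% ± 3.15 (SD, n = 3) in controls and 35.2% ± 4.94 (SD, n = 3) after rhArg, a difference of -17.0 percentage points, with a two-sided exact permutation p = 0.1, the smallest that 3 against 3 libraries can give. The GLI2 share was 47.7% ± 2.97 and 64.8% ± 4.94, and the GLI3 share reached 0.352% in 1 control library and was 0 in the other libraries. In shares of the raw counts, with no length scaling, the GLI1 difference was -14.8 percentage points.

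**Figure D3:**
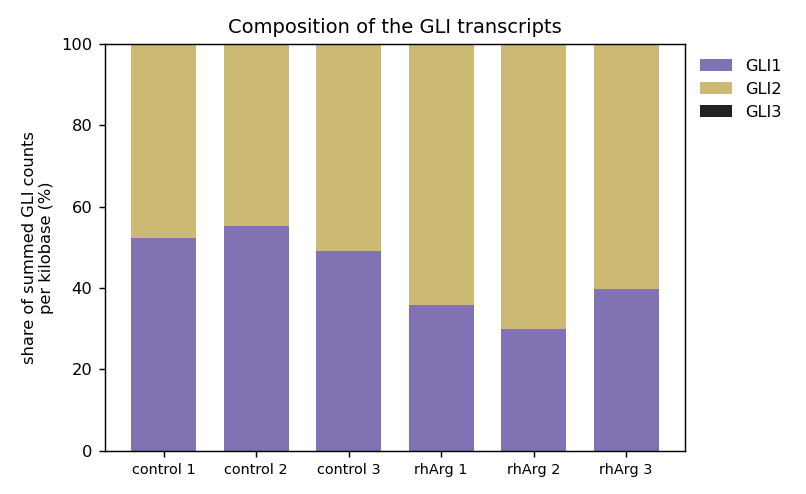
Share of GLI1, GLI2 and GLI3 in the summed GLI counts per kilobase (vertical axis, percent) in each of the 6 libraries. GLI1 takes 49.0% to 55.3% in controls and 30.0% to 39.8% after rhArg, and the GLI3 share is at most 0.352%.

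To compare genes with each other, counts were scaled by the exon length in the table and expressed as TPM, the length-scaled share of all transcripts. In controls SMO was the highest member at 39.3 ± 1.07 TPM (SD, n = 3), followed by SUFU at 31.7 ± 0.751 TPM and PTCH1 at 16.9 ± 2.15 TPM. GLI1 at 7.52 ± 0.538 TPM, GLI2 at 6.87 ± 0.520 TPM and CDON at 5.496 ± 0.916 TPM followed, and neighbours among these 3 overlapped in their ranges. HHIP was far below at 0.330 ± 0.0625 TPM, and its range overlapped that of BOC at 0.140 ± 0.164 TPM. The control order thus placed the signal transducer and the GLI inhibitor on top and the decoy among the genes near the limit.

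After rhArg the order of the TPM levels was led by SUFU at 29.6 ± 0.397 TPM. SMO, between 18.1 and 21.05 TPM in the 3 libraries, and PTCH1 at 18.3 ± 1.02 TPM came next, and their ranges overlapped. HHIP had risen to 9.23 ± 0.901 TPM, which overlapped GLI2 at 9.003 ± 1.31 TPM. GLI1 at 4.85 ± 0.378 TPM and CDON at 2.47 ± 0.0475 TPM were lower and separate from their neighbours. TPM uses the joint length of all annotated exons, which is long for CDON (19924 bases), PTCH1 (17281 bases) and HHIP (11939 bases), so the levels of these genes may be understated beside those of SMO (4750 bases) and GLI1 (4560 bases).

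**Figure D4:**
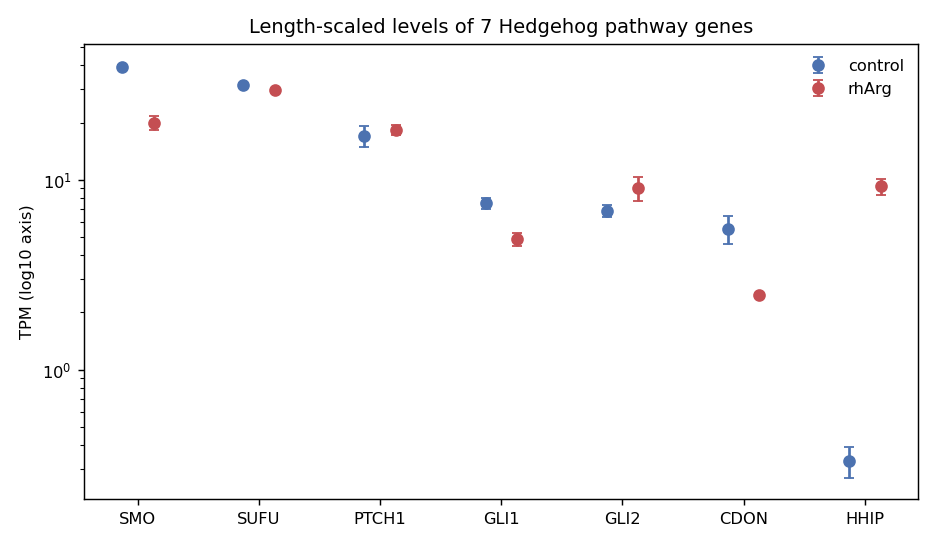
Length-scaled level (TPM, log10 vertical axis) of the 7 tested members, as mean and SD of 3 libraries in controls (blue) and after rhArg (red), in the order of the control means. HHIP goes from 0.330 TPM, the lowest of the 7, to 9.23 TPM, next to GLI2.

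The wider pathway was described with lists of genes for ligand release, reception, signal relay, the cilium and reported targets. The ligand genes themselves were at the limit of detection. SHH had 3 counts in each control library and 0 in each rhArg library. With a floor of 3 counts over the rhArg group, the level of SHH there was at least 3.08-fold lower. This value takes the control counts as exact, so counting error in the controls is not covered. IHH had 4 counts in controls and 6 after rhArg, and DHH 5 and 5, and none of the 3 ligands passed the filter on low counts.

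Of the 10 genes for ligands and their release, 6 were tested, of which 4 were higher and 1 was lower, with a median log2 fold change of 0.37. Over all genes tested 30.7% were higher and 30.9% lower, with a median of -0.005. HHAT, the acyltransferase that attaches palmitate to the ligand, had normalized counts of 229, 208 and 201 in controls and 324, 375 and 386 after rhArg. It rose by a log2 fold change of 0.76 (SE 0.12, adjusted p = 6.1e-05), with no overlap between groups. DISP2, of the dispatched family, rose by 0.33 (SE 0.12, adjusted p = 0.023) on the log2 scale with overlapping ranges, and DISP1, the transporter that releases the ligand, named after its values were seen as the gene that did not pass, had a log2 fold change of 0.11 (adjusted p = 0.57). DISP3, a patched-related member of the same family, was the gene that fell, from 1473 ± 155 to 583 ± 45.6 normalized counts (SD, n = 3 each), a log2 fold change of -1.34 (SE 0.11, adjusted p = 3.1e-08). Both SCUBE genes tested, which code for secreted carriers of the ligand, were higher. SCUBE3 had a log2 fold change of 0.42 (adjusted p = 0.037), and SCUBE2, named after its values were seen because its mean count was low, had raw counts of 1, 4 and 5 in controls and 29, 30 and 23 after rhArg. Its log2 fold change was 2.95 (SE 0.43, adjusted p = 2.1e-05), and it passed the filter on low counts through the rhArg group alone, so that it had to be high there. Without 1 library (control replicate 1, rhArg replicate 1 or rhArg replicate 2) the number of higher genes in this list was 2 in place of 4.

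Among 10 further receptors and co-receptors, 7 were tested, of which 6 were higher, 0 were lower and 1 did not pass, with a median log2 fold change of 0.81. Of all genes tested 30.7% were higher and 30.9% lower, and with 7 genes nothing is read from the list's direction. The glypicans GPC5 and GPC6, cell-surface proteoglycans that bind Hedgehog ligands, were higher. GPC5 rose from 20.3 ± 1.37 to 67.3 ± 10.1 normalized counts (SD, n = 3 each), a log2 fold change of 1.72 (SE 0.23, adjusted p = 1.0e-05). GPC6 rose from 584 ± 79.9 to 1025 ± 124 normalized counts, a log2 fold change of 0.81 (SE 0.12, adjusted p = 2.3e-05). MOSMO, part of a membrane complex that lowers SMO at the cell surface, had a log2 fold change of 1.24 (SE 0.30, adjusted p = 0.0019). Like HHIP, it needed rhArg libraries to pass the filter on low counts. LRP2, a large endocytic receptor named here as the gene that did not pass, was at -0.54 on the log2 scale (adjusted p = 0.24).

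In the relay from SMO to GLI, 36 of 37 genes were tested, of which 15 were higher, 7 were lower and 14 did not pass, with a median log2 fold change of 0.21. The share called, 61.1%, was that of the background (61.7% of all genes). After KIF7, the largest rise was that of PRKACB, a catalytic subunit of protein kinase A, the kinase that marks GLI proteins for processing. PRKACB had normalized counts of 523, 477 and 456 in controls and 1413, 1347 and 1524 after rhArg, with a log2 fold change of 1.56 (SE 0.10, adjusted p = 2.9e-09). The regulatory subunit PRKAR2B (0.78, adjusted p = 0.00071), the GLI kinase GSK3B (0.73, adjusted p = 6.7e-06) and EVC (0.72, adjusted p = 1.6e-05), a ciliary partner of SMO, rose by smaller log2 fold changes. The largest falls were those of ARRB1, a beta-arrestin that binds active SMO, at -1.29 (SE 0.14, adjusted p = 7.9e-07), and DYRK2, a kinase that targets GLI2 for degradation, at -1.14 (SE 0.12, adjusted p = 7.8e-07). CSNK1G2, a casein kinase 1 isoform, fell by 0.69, IFT122 by 0.49 and STK36, the Fused homolog, by 0.47 on the log2 scale. The ranges of STK36 overlapped between groups.

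The primary cilium is the place where SMO and GLI proteins meet. Of 39 genes of the ciliary machinery, all tested, 8 were higher, 21 were lower and 10 did not pass, with a median log2 fold change of -0.47. The share called lower was 53.8% beside 30.9% of all genes, a description of the list and no test of it. WDR35, a component of the retrograde transport complex IFT-A, had normalized counts of 1194, 844 and 1021 in controls and 237, 223 and 250 after rhArg. It fell the most in this list, to a log2 fold change of -2.11 (SE 0.13, adjusted p = 1.6e-09). The transition zone genes TCTN2 and TMEM67 fell by 1.47 and 1.39 on the log2 scale, and the anterograde IFT-B genes IFT57 and IFT88 by 1.33 and 1.09 (adjusted p between 1.7e-06 and 0.00012 for these 4). Among the genes that rose were the motor subunits KIF3A, at a log2 fold change of 0.84, KIFAP3 at 0.80 and DYNC2H1 at 0.79. The BBSome genes BBS7 and BBS2 rose by 0.79 and 0.58, with adjusted p between 2.6e-05 and 0.010 for these 5. The list therefore held genes called in both directions.

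Of 29 genes reported as Hedgehog targets in various tissues, 17 were tested, of which 7 were higher, 7 were lower and 3 did not pass, with a median log2 fold change of -0.12. The shares higher and lower were 41.2% each (82.35% called), beside 30.7% higher and 30.9% lower of all genes tested (61.7% called). This describes the list and is no test of it. The genes lower after rhArg were led by CCND1, the cyclin that drives entry into the cell cycle, with normalized counts of 395, 394 and 370 in controls and 31.9, 29.9 and 36.6 after rhArg. Its groups were far apart, with a log2 fold change of -3.55 (SE 0.16, adjusted p = 4.1e-11). LTO1 covers 10.4% of the exon bases of CCND1. TGFB2, a secreted growth factor, had a log2 fold change of -2.56 (SE 0.23, adjusted p = 9.4e-08), SFRP1, a secreted WNT antagonist, -1.55 (SE 0.11, adjusted p = 6.9e-09), and SNAI1, a repressor of epithelial genes, -0.81 (SE 0.15, adjusted p = 0.00019). MYCN, a growth-promoting transcription factor, had normalized counts of 56190, 61790 and 44820 in controls and 14010, 13270 and 12000 after rhArg, and its log2 fold change was -2.05 (SE 0.12, adjusted p = 7.6e-10). Its level in controls far exceeded that of the other named targets.

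The targets that were higher included OLIG2, a transcription factor of ventral neural progenitors, with normalized counts of 57.6, 73.3 and 49.9 in controls and 163, 123 and 151 after rhArg. It rose by a log2 fold change of 1.28 (SE 0.19, adjusted p = 2.7e-05). CCND2, another D-type cyclin, had normalized counts of 1388, 1422 and 1452 in controls and 2306, 2157 and 2245 after rhArg, a log2 fold change of 0.65 (SE 0.09, adjusted p = 8.8e-06), opposite to CCND1. HES1, also a NOTCH target, had a log2 fold change of 0.92 (SE 0.30, adjusted p = 0.014), and JUP, the junction protein plakoglobin, 0.77 (SE 0.11, adjusted p = 1.5e-05). FOXF1, also counted as higher, needed rhArg libraries to pass the filter on low counts.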

How the data were processed

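RNA of Y79 cells was sequenced in 3 control and 3 rhArg libraries, grouped by the sample labels. The authors used SOAPnuke for read filtering and HISAT2 for alignment to hg38 (versions not given in the sources used here) and counted reads with featureCounts 2.0.1. The deposited values are raw counts per gene without strand, against an Ensembl annotation of GRCh38 per the file header. Gene IDs were matched to symbols (62541 of 63140). In R 4.3.3, edgeR 4.0.16 was used (filterByExpr, TMM, glmQLFit and glmQLFTest with condition as the only term), with Benjamini-Hochberg adjustment over 15221 genes. TMM factors were 0.975 to 1.02 and the common dispersion was 0.011. A normalized count is a count scaled to the mean effective library size. Intervals of folds and ratios come from the edgeR fit, except that of BOC, which covers counting error only.

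Named were all 9 members, KIF7, SHH, IHH, DHH and GAS1, up to 5 higher and 5 lower genes of each list by absolute log2 fold change (mean normalized count at least 20), the 4 highest genes of each marker list and the 5 genes most like HHIP. Not every such gene is reported here. Members, lists and motifs were chosen with earlier results of these data known. The fit was tested on simulated data. Alternatives were DESeq2 1.42.0, other size factors, filters and thresholds, the replicate block and leaving out each library. Exact permutation tests used scipy 1.17.1.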

Additional observations from a re-analysis of the deposited data

How the results depend on the processing

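Over 15 alternatives the log2 fold change ranged from 4.57 to 4.77 for HHIP, from -1.12 to -0.99 for SMO, from -1.33 to -1.15 for CDON and from -0.83 to -0.67 for GLI1. HHIP passed under each of them, and SMO, CDON and GLI1 under all but 1. PTCH1 (-0.07 to 0.07), GLI2 (0.19 to 0.39) and SUFU (-0.25 to -0.16) passed under none. In the exception, a test against an absolute log2 fold change of 1, edgeR left SMO at -1.06 (adjusted p = 0.59), CDON at -1.24 (adjusted p = 0.0997) and GLI1 at -0.72 (adjusted p = 1), so that 0 members were lower. That test left 1 higher gene of the release list, 2 of the receptors, 2 higher and 0 lower of the relay, 0 higher and 2 lower of the cilium, 1 higher and 4 lower of the targets, and 1045 higher and 843 lower of all genes. With the fold cutoff of the study 1881 genes were higher and 1677 lower. When low counts were not filtered, edgeR had 2 release genes lower, SHH being added (adjusted p = 0.017), and 4 members lower with BOC, whereas DESeq2 over all genes with any count had 1 and 3. Leaving out 1 library gave 2 to 4 higher release genes and 10 to 15 higher relay genes.

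Same-numbered libraries did not deviate together (correlations -0.0785, 0.0589 and 0.00403). The labels do not say whether the numbers pair the samples, and so few correlations cannot decide it. With the replicate block HHIP was at 4.71 and no member's call changed, and higher relay genes numbered 13 in place of 15. At this depth the counts of GLI3, BOC and the ligands were too few to pass the filter.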

Other observations

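The genes whose log2 CPM profile over the 6 libraries, centred on its mean, lay nearest to that of HHIP were HRK, ABCA4, BEST1, CDS1 and MINAR1, with Euclidean distances of 0.374, 0.466, 0.502, 0.533 and 0.588 among 11532 genes compared. HRK, a BH3-only promoter of apoptosis, had 41.2 ± 4.10 normalized counts in controls and 833 ± 28.3 after rhArg (SD, n = 3 each), a log2 fold change of 4.33 (SE 0.13). ABCA4, the photoreceptor retinoid transporter, had 23.7 ± 0.803 and 518 ± 42.7 normalized counts, a log2 fold change of 4.44 (SE 0.16). CDS1, an enzyme of phospholipid synthesis, went from 12.2 ± 2.57 to 352 ± 11.1, and MINAR1 from 25.3 ± 0.528 to 480 ± 42.4 normalized counts. BEST1, a chloride channel of the retinal pigment epithelium, went from 2.69 ± 1.11 to 121 ± 12.4 normalized counts, and 14.6% of its exon bases lie within another gene, FTH1. Likeness here rests mostly on the difference between the groups, which these genes share with HHIP.

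Among the markers of other cell types, SLC1A3, a glutamate transporter of Müller glia, had 11.9, 17.2 and 12.7 normalized counts in controls and 214, 164 and 187 after rhArg (log2 fold change 3.75, SE 0.22). The other markers of this list did not all follow it. Of the 4 tested, 2 were higher (SLC1A3 and CLU), 1 was lower (GLUL, log2 fold change -0.31) and 1 did not pass (VIM).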
